A study of Homo sapiens with 20 samples.

Results

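RNA-seq of lung cancer cell lines was examined for 10 cytokine genes out of the 58233 Ensembl gene identifiers counted in each library. The genes were *IL6*, *LIF* and *IL11* of the IL-6 family, *IL1A* and *IL1B* of the IL-1 family, *IL23A*, *IL24* and the colony-stimulating factor genes *CSF1*, *CSF2* and *CSF3*. They were chosen by symbol, with no threshold on a measured value, but the list was drawn up with results of these same libraries in view. The changes below therefore describe these genes, and the count of members called in a comparison is not independent support for anything.

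The 20 libraries came from 4 cell lines carrying Cas9 and a single-guide RNA (sgRNA) against *ADAR* or, as control, against *GFP*, a gene that human cells lack. HCC366 is a lung adenosquamous line, NCI-H1650 a lung adenocarcinoma line and NCI-H196 a variant small cell lung cancer line. These 3 lines depend on ADAR1, and their RNA was collected untreated, 5 days after lentiviral transduction. A549, a lung adenocarcinoma line that tolerates loss of ADAR1, was given vehicle or 10 ng/mL interferon-β (IFN-β) for 24 h. Each of the 10 conditions had 2 libraries, which differed in the sgRNA (sg1 or sg2). All were transduced, selected populations rather than clones, so a knockout (KO) library can hold cells with an intact gene. The SD of a condition is the spread between 2 sgRNAs, since nothing says that they came from separate experiments. In bulk RNA, fewer cells expressing a gene and less RNA per cell cannot be told apart.

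ADAR1 converts adenosine to inosine in double-stranded RNA, which keeps cellular RNA from being taken for viral RNA by sensors such as MDA5 and PKR. The cytokines studied here are secreted by stressed, infected or damaged cells. IL-6, LIF and IL-11 act through receptors that share the subunit encoded by *IL6ST* and activate STAT3. IL-1α and IL-1β act through *IL1R1*, and IL-1β needs cleavage of its precursor, typically by caspase-1, for activity. The colony-stimulating factors drive growth and survival of macrophages and neutrophils. Many cytokine genes are induced by the transcription factors NF-kB and AP-1, and many of their mRNAs are short-lived because proteins such as ZFP36 and regnase-1 (*ZC3H12A*) promote their decay.

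The promoters of 5 members are shown because these genes rose with IFN-β in A549 *ADAR* KO cells and hold letters of known motifs. Each run is the 200 bases before the gene's first listed RefSeq transcription start, on its own strand, in GRCh38.p14. Capitals mark motif matches: NF-kB in *IL6*, AP-1 in *IL11* and *IL1A*, NF-kB and then AP-1 in *IL23A*, and the core of the interferon-stimulated response element in *IL24*.
IL6, chr7:22727000-22727199, plus strand: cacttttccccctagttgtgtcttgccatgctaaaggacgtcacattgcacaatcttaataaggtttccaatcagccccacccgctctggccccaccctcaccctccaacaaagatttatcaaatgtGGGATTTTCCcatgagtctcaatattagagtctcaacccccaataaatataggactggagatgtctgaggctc
IL11, chr19:55370464-55370663, minus strand: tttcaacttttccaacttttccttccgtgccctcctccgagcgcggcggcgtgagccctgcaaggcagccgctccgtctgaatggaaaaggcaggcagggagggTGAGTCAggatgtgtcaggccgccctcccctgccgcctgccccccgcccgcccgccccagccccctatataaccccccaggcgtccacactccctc
IL1A, chr2:112784494-112784693, minus strand: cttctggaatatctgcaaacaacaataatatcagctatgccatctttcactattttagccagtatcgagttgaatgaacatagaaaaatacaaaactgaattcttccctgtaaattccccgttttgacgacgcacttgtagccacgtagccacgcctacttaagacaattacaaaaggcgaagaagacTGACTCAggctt
IL23A, chr12:56338684-56338883, plus strand: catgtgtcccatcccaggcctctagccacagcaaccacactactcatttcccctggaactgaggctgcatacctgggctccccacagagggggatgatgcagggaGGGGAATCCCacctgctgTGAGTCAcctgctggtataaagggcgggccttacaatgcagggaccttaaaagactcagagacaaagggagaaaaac
IL24, chr1:206897243-206897442, plus strand: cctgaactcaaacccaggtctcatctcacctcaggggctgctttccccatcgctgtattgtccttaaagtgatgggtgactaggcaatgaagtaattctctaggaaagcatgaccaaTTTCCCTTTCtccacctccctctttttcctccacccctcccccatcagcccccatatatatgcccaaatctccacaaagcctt

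Promoters of 7 members were in the RefSeq table (*IL6*, *IL11*, *IL1A*, *IL1B*, *IL23A*, *IL24* and *CSF2*), and those of *LIF*, *CSF1* and *CSF3* were not used here. Motifs were searched on both strands of the 250 bases before each listed start. A member is counted if any of its starts held a match, while the percentages are of single promoters. The NF-kB consensus stood in *IL6* at bases −73 to −64 from the start and in *IL23A* at −95 to −86, which is 2 of 7 members, against 2.71% of all 35116 promoters. The AP-1 motif TGANTCA stood in *IL11*, *IL1A* and *IL23A*, 3 of 7 members against 6.57% of promoters. Another listed start of *IL1A*, whose bases are not shown, held it at −105 to −99 and −55 to −49. The interferon-stimulated response element core, GAAANNGAAA, stood in *IL24* on the opposite strand, against 3.02% of promoters. The cAMP response element TGACGTCA stood in 0 of 7 members, against 1.65% of promoters. A match is a description of these letters and not evidence of binding.

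Reads on genes ranged from 62679 to 19520189 per library, with a median of 6411279. NCI-H196 GFP sg2 was the shallowest library at 62679 reads, so a gene with 0 reads there could still be at 43.98 CPM, the level of 3 reads (a limit that covers counting error only). HCC366 ADAR sg2 had 85.6% of its alignments discarded as not unique. Levels below are CPM, read counts normalized by TMM separately in each cell line unless a scale over all 20 libraries is named. Fold changes are edgeR log2 values with their standard error (SE) and a Benjamini-Hochberg adjusted p over all genes tested. *ADAR* mRNA in each line was lower in the KO libraries than in the controls, without overlap, with a log2 change from −1.29 in NCI-H1650 to −0.41 in NCI-H196, and it passed the test except in HCC366 (−0.84, SE 0.31, adjusted p = 0.208). With all 20 libraries scaled together, as for every marker sum here, epithelial markers summed to between 2635 and 9868 CPM across A549, HCC366 and NCI-H1650. They summed to at most 83.93 CPM in NCI-H196, where the mesenchymal markers were highest, at 5460 to 7346 CPM. The epithelial sums outside NCI-H196 were mostly *KRT7*, *KRT8* and *KRT18*. *EPCAM* was at most 0.6299 CPM in A549 and 1.874 CPM in HCC366, against at least 91.84 CPM in NCI-H1650. *KRT19* was at most 1.659 CPM in A549 and had 0 reads in HCC366, where *CDH1* was at most 9.906 CPM. The mesenchymal marker *VIM* was at 688.3 to 865.9 CPM in A549. Neuroendocrine markers summed to at most 15.92 CPM in NCI-H196. Of 6 leukocyte markers, *LYZ* and *CD3E* had 0 reads in all libraries. Their sum, mostly *ITGAM* and *CD14*, was 3.982 to 7.032 CPM in A549 *GFP* libraries and 3.779 to 13.55 CPM in A549 *ADAR* libraries. It was 9.292 to 13.65 CPM in HCC366 *GFP* libraries and 36.68 to 49.01 CPM in HCC366 *ADAR* libraries, with *PTPRC*, which marks all leukocytes, at 1 read in total in that line. In NCI-H1650 it was 1.972 to 4.393 CPM in *GFP* and 4.211 to 4.807 CPM in *ADAR* libraries, and in NCI-H196 0 to 5.048 and 9.522 to 15.37 CPM, with *PTPRC* at 8 and 28 reads in total. *ITGAM*, an integrin subunit of myeloid cells, rose with *ADAR* KO in HCC366 (2.67, SE 0.45, adjusted p = 0.0323), NCI-H1650 (1.77, SE 0.51, adjusted p = 0.0158), NCI-H196 (4.31, SE 1.01, adjusted p = 0.000119) and A549 with IFN-β (0.99, SE 0.27, adjusted p = 0.01), and at −0.07 (SE 0.35, adjusted p = 0.999) it was not called in A549 with vehicle. In NCI-H1650 and NCI-H196, *ITGAM* passed the filter on low counts only through the *ADAR* libraries, where it was high. Its reads per library were 2 to 8 in *GFP* and 17 to 23 in *ADAR* libraries of NCI-H1650. In NCI-H196 they were 0 to 1 and 6 to 18. The part of these markers in the cytokine results was not tested.

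Before ADAR1 loss, the lines differed in which cytokine they expressed most. Per kilobase of exon, and with all 20 libraries scaled together, *IL11* led in A549 *GFP* cells given vehicle at 101.7 ± 1.495 CPM per kb (SD, n = 2). *IL6* led in NCI-H1650 at 25.78 ± 5.165 CPM per kb and in HCC366 at 17.83 ± 1.213 CPM per kb, where *LIF* followed at 17.35 ± 1.841 CPM per kb. *IL1B* led in NCI-H196 at 39.23 ± 11.23 CPM per kb. These are levels of different genes and were not tested against each other.

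**Figure D1:**
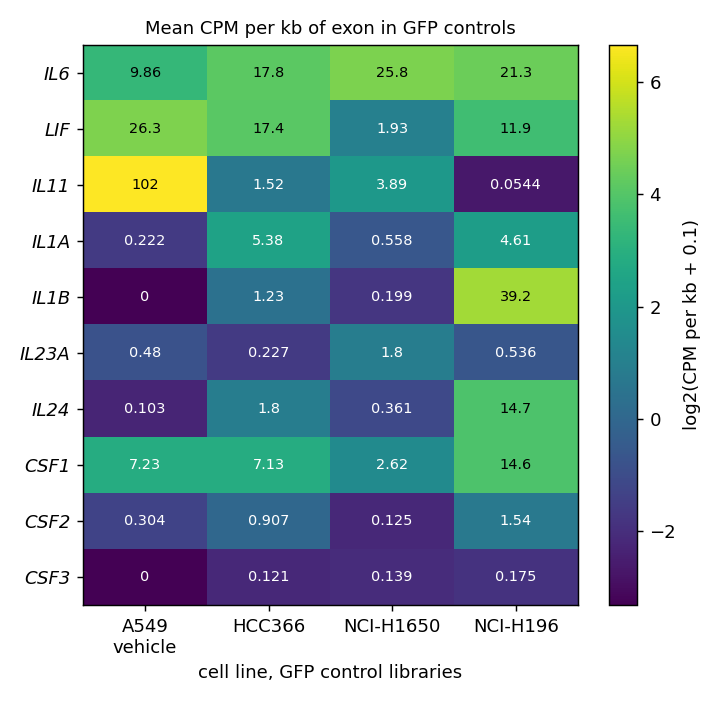
Mean level of each cytokine transcript in the *GFP* control libraries of each line (A549 with vehicle), in CPM per kilobase of exon with all 20 libraries scaled together, as numbers and as colour on a log2 scale after adding 0.1. The brightest cell is *IL11* in A549 at 102 CPM per kb. NCI-H196 means rest on 1 deep and 1 very shallow library.

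On that common scale, *IL6* controls were in the order NCI-H1650 (111.4 ± 22.32 CPM), NCI-H196 (91.95 ± 26.49 CPM), HCC366 (77.06 ± 5.24 CPM) and A549 (42.59 ± 10.03 CPM). The libraries of neighbouring lines overlapped except between HCC366 and A549. *LIF* was highest in A549 (101.8 ± 2.0 CPM) and lowest in NCI-H1650 (7.458 ± 2.558 CPM), with HCC366 and NCI-H196 overlapping between them. *IL11* was highest in A549 at 272.4 ± 4.003 CPM, followed by NCI-H1650 and HCC366 without overlap. NCI-H196 GFP sg1, the deep library, had 3 reads of it (0.2913 CPM), below both HCC366 libraries (5.718 and 2.41 CPM). NCI-H196 GFP sg2 had 0 reads, which allows up to 31.38 CPM, so the place of NCI-H196 in that order rests on GFP sg1. *IL1B* ran from 118 ± 33.8 CPM in NCI-H196 to 0 reads in both A549 libraries, which on this scale allow up to 0.479 and 0.249 CPM. *IL24* was highest in NCI-H196 (29.05 ± 11.5 CPM), and *CSF1* was highest in NCI-H196 (76.5 ± 10.15 CPM) and lowest in NCI-H1650 (13.74 ± 1.868 CPM). *IL23A*, *CSF2* and *CSF3* were at 2.124 CPM or less on average in the controls of every line, and in NCI-H196 GFP sg2 all 3 had 0 reads, under the same limit.

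**Figure D2:**
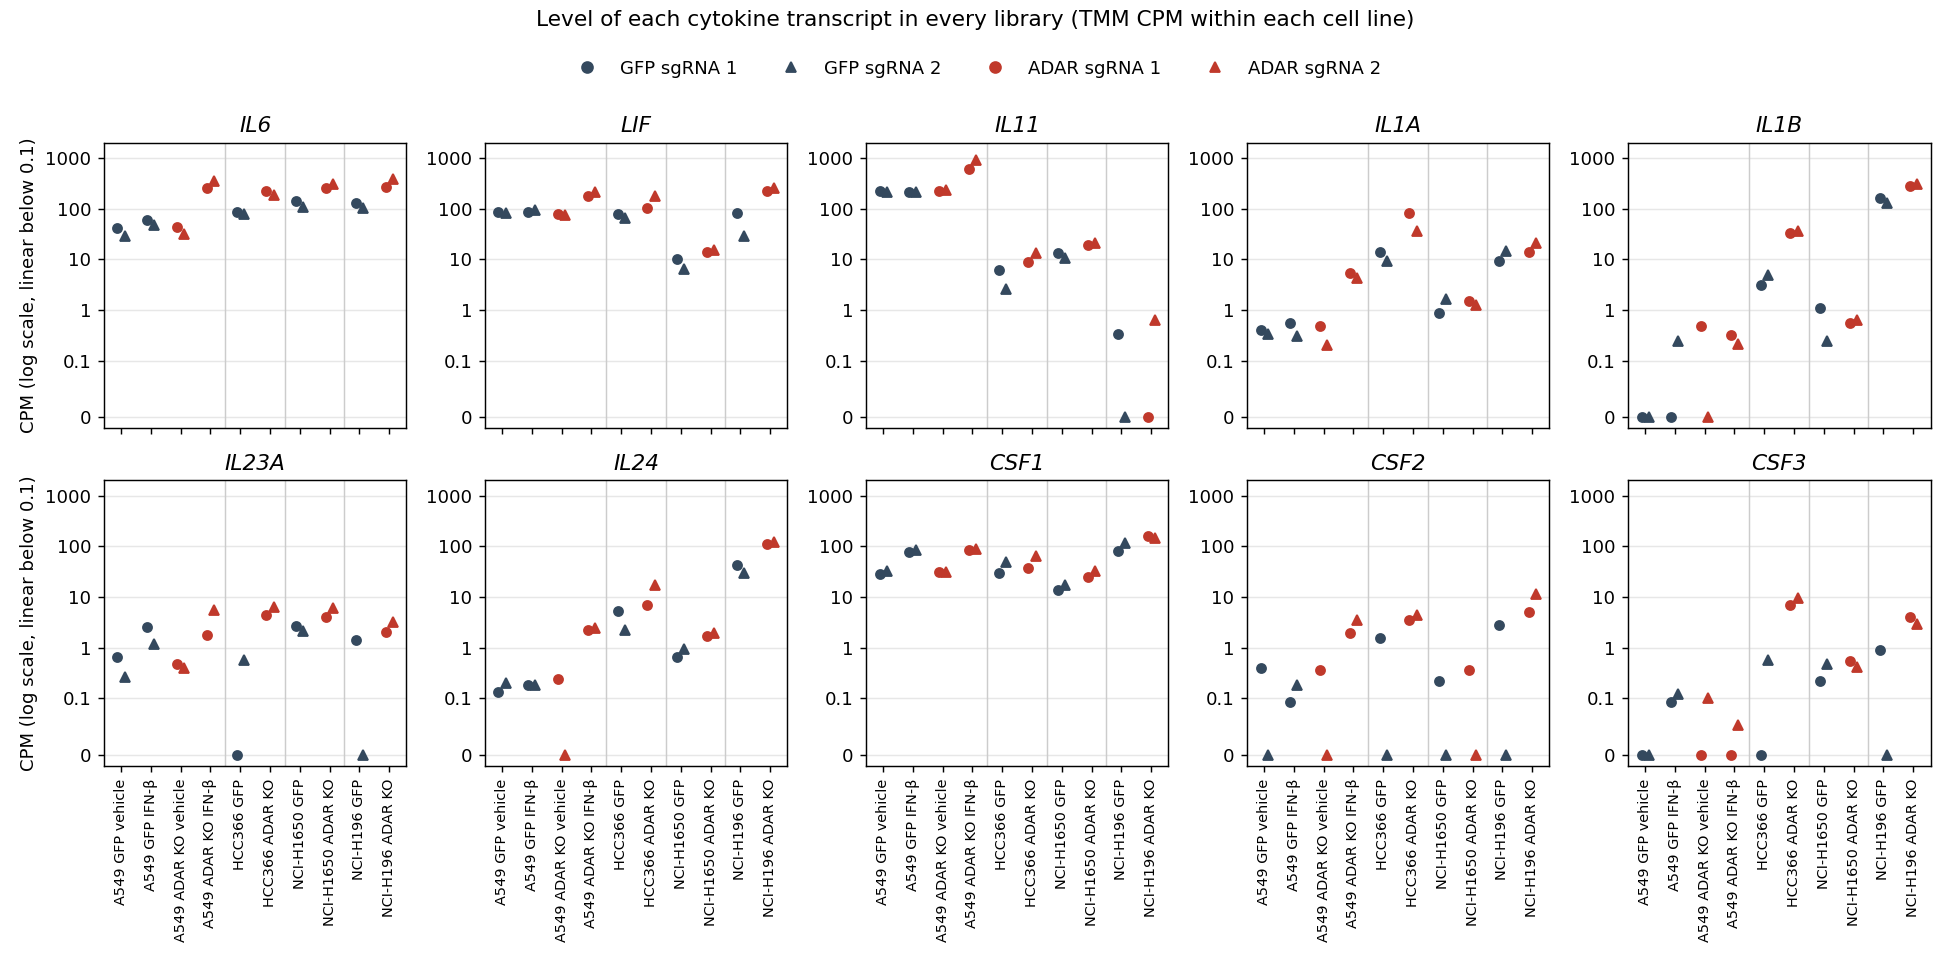
Level of each member in all 20 libraries, in TMM-scaled CPM within each line on a log axis that is linear below 0.1. Circles are sg1, triangles sg2, red is *ADAR* and dark blue *GFP*. For *IL6*, the red points stand above the dark blue ones in A549 with IFN-β and in the 3 other lines, and the groups overlap in A549 with vehicle.

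*IL6* (ENSG00000136244) lies on the plus strand of chromosome 7 of GRCh37, from 22765503 to 22771621, with 5 exons in its canonical transcript. IL-6 is the founding ligand of its family and drives the acute-phase response. In NCI-H1650 the *GFP* libraries were at 142.2 and 109.2 CPM and the *ADAR* libraries at 259.8 and 300.7 CPM. *IL6* rose in that line, with a log2 fold change of 1.15 (SE 0.11, adjusted p = 1.91e-11). In NCI-H196 the *GFP* libraries were at 127.1 and 102.6 CPM, the second from 7 reads, and the *ADAR* libraries at 272 and 375.7 CPM. It rose there by a log2 fold change of 1.43 (SE 0.11, adjusted p = 3.62e-36), and with each library left out in turn it was called, at 1.14 to 1.75. In HCC366 the *GFP* libraries were at 87.54 and 78.5 CPM and the *ADAR* libraries at 224.8 and 184.3 CPM. The groups did not overlap, and the log2 fold change of 1.30 (SE 0.33) did not pass the test (adjusted p = 0.103). The DESeq2 test gave 1.27 with an adjusted p of 0.0327. Without HCC366 ADAR sg2, which leaves ADAR sg1 alone in its group, the log2 fold change was 1.47. Without either GFP library *IL6* was not called.

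In A549, the level of *IL6* hinged on both the sgRNA and the treatment. With vehicle, it was 41.04 and 28.42 CPM in *GFP* libraries and 43.66 and 31.63 CPM in *ADAR* libraries, groups that overlapped (log2 fold change 0.14, SE 0.17, adjusted p = 0.999). With IFN-β it was 59.55 and 47.5 CPM in *GFP* libraries and 255 and 348.2 CPM in *ADAR* libraries. *IL6* rose with *ADAR* KO under IFN-β by a log2 fold change of 2.50 (SE 0.15, adjusted p = 2.79e-13). IFN-β alone raised it in *GFP* cells by 0.65 (SE 0.16, adjusted p = 0.0106), a call that was lost without GFP vehicle sg2 (0.38, adjusted p = 0.485) or without GFP IFN-β sg1 (0.49, adjusted p = 0.0979). In *ADAR* KO cells IFN-β raised it by 3.01 (SE 0.16, adjusted p = 1.39e-15). The interaction, that is the KO effect with IFN-β minus that with vehicle, was 2.37 (SE 0.23, adjusted p = 2.35e-08). Exons of *IL6* share 428 bases with those of *IL6-AS1* and 46 with those of *STEAP1B*, both on the opposite strand, which had 226 and 349 reads over all 20 libraries, and the strand setting of the counting was not given in the sources used here.

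*LIF* (ENSG00000128342; chromosome 22, 30636442 to 30642748, minus strand, 3 exons) encodes leukemia inhibitory factor, which signals through LIFR and IL6ST. In NCI-H196 the *GFP* libraries were at 81.97 and 29.32 CPM, the second from 2 reads, and the *ADAR* libraries at 224.3 and 255.7 CPM. *LIF* rose there by a log2 fold change of 1.61 (SE 0.11, adjusted p = 1.66e-45), and with each library left out in turn it was called at 1.55 to 3.08, the highest value coming without GFP sg1. In NCI-H1650 it went from 10.36 and 6.449 CPM to 13.74 and 15.16 CPM and rose by 0.77 (SE 0.24, adjusted p = 0.0312). That call was lost without GFP sg2 (0.45, adjusted p = 0.444) or ADAR sg2 (0.69, adjusted p = 0.106). In HCC366 it was 78.24 and 66.47 CPM in *GFP* and 103.2 and 177.2 CPM in *ADAR* libraries, without overlap, and the log2 fold change of 0.96 (SE 0.38) had an adjusted p of 0.231.

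In A549 with vehicle, *LIF* was at 85.24 and 80.35 CPM in *GFP* and 77.2 and 75.26 CPM in *ADAR* libraries. With IFN-β it was 84.4 and 94.26 CPM in *GFP* and 178.2 and 211.2 CPM in *ADAR* libraries. Under IFN-β it rose with *ADAR* KO by a log2 fold change of 1.12 (SE 0.11, adjusted p = 4.6e-09). IFN-β did not pass the test in *GFP* cells (0.11, SE 0.11, adjusted p = 0.712) and raised *LIF* in *ADAR* KO cells by 1.36 (SE 0.11, adjusted p = 3.96e-11). The interaction was 1.24 (SE 0.16, adjusted p = 3.18e-06). *LIF* shares 86 exon bases with *LIF-AS1* and 83 with *LIF-AS2* on the opposite strand, which had 59 and 202 reads over all 20 libraries.

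*IL11* (ENSG00000095752; chromosome 19, 55875750 to 55881831, minus strand, 5 exons) encodes interleukin-11, which signals through IL11RA and IL6ST. A549 was the line with the highest level, at 227.4 and 215.8 CPM in *GFP* and 221.7 and 232.3 CPM in *ADAR* libraries with vehicle. With IFN-β, *GFP* libraries were at 214 and 209.5 CPM and *ADAR* libraries at 605.9 and 906.6 CPM. *IL11* rose with *ADAR* KO under IFN-β by a log2 fold change of 1.84 (SE 0.12, adjusted p = 1.98e-12), and the interaction was 1.80 (SE 0.17, adjusted p = 2.16e-08). With IFN-β in *GFP* cells the log2 fold change was −0.06 (SE 0.12, adjusted p = 0.883), and in *ADAR* KO cells it was 1.74 (SE 0.12, adjusted p = 1.38e-12).

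In NCI-H1650, *IL11* rose from 13.01 and 10.51 CPM to 19.13 and 20.93 CPM (0.76, SE 0.20, adjusted p = 0.00989), a call lost without GFP sg2 (0.59, adjusted p = 0.182). In HCC366 it was 6.197 and 2.578 CPM in *GFP* and 8.748 and 13.58 CPM in *ADAR* libraries, from 8 to 21 reads, and did not pass the test (1.55, SE 0.58, adjusted p = 0.21). NCI-H196 had 5 reads or fewer in each library and was not tested. The IL-6 family ligands that are no members were mostly low: 2 of 7 passed the filter on low counts in HCC366 and NCI-H196, 3 in NCI-H1650 and 4 in A549. Cardiotrophin-1 (*CTF1*) rose in NCI-H1650 (1.14, SE 0.33, adjusted p = 0.0196), a call that DESeq2 did not make (adjusted p = 0.44).

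**Figure D3:**
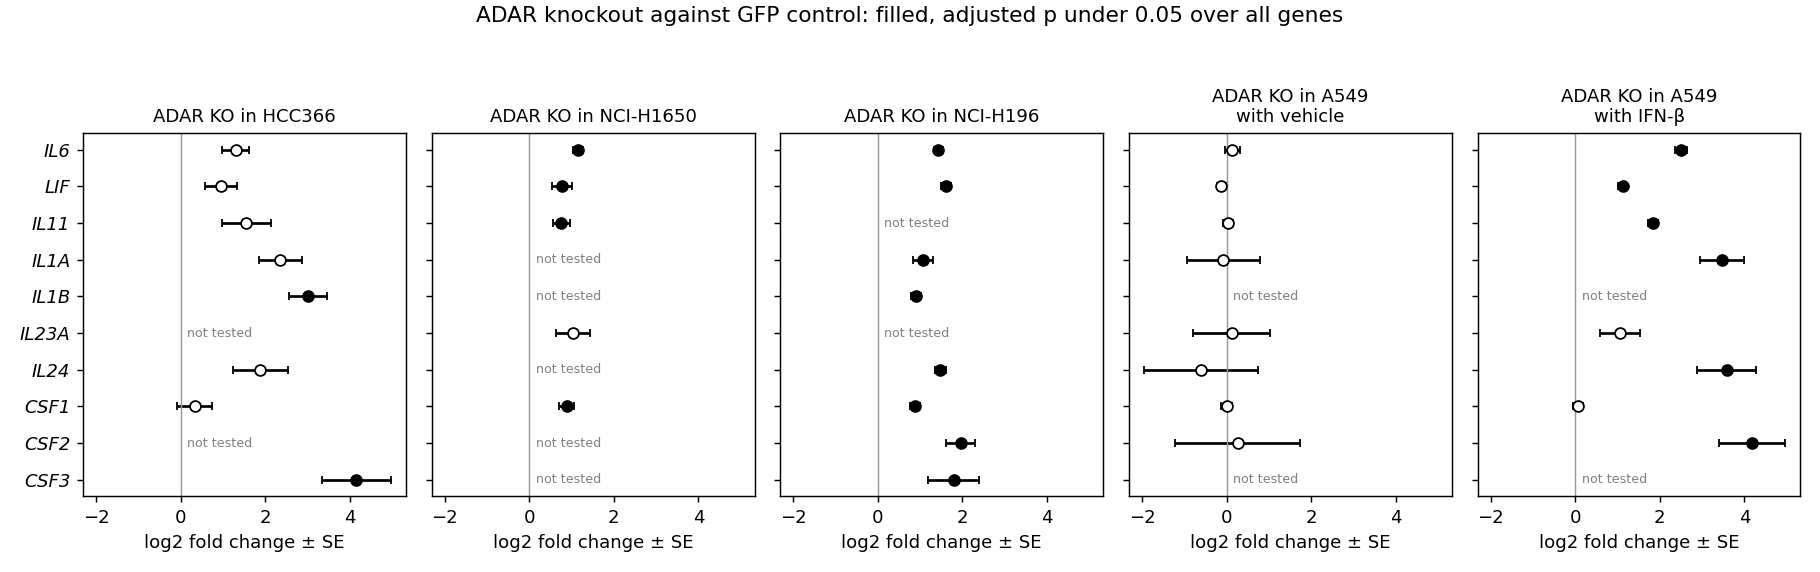
Log2 fold change of *ADAR* KO over *GFP* with its SE for each member in the 3 ADAR1-dependent lines and in A549 with vehicle or IFN-β. Filled points passed an adjusted p of 0.05 over all genes and members under the count filter are marked as not tested. All values tested in HCC366, NCI-H1650, NCI-H196 and A549 with IFN-β are above 0, and those of A549 with vehicle lie on both sides of it.

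*IL1A* (ENSG00000115008) and *IL1B* (ENSG00000125538) are neighbours on the minus strand of chromosome 2, from 113531502 to 113542070 and from 113587328 to 113594393, each with 7 exons. IL-1α is active as a precursor and acts as an alarm signal when cells die. In HCC366, *IL1B* was at 3.099 and 4.87 CPM in *GFP* libraries (4 and 17 reads) and at 33.24 and 36.21 CPM in *ADAR* libraries (38 and 56 reads). It rose there by a log2 fold change of 3.02 (SE 0.45, adjusted p = 0.0273), a call lost without GFP sg1 (2.78, adjusted p = 0.209) or GFP sg2 (3.45, adjusted p = 0.235). *IL1B* passed the count filter in HCC366 only through the *ADAR* libraries, the group where it was high, and without the filter it was called (2.94, adjusted p = 7.85e-06). *IL1A* went from 13.94 and 9.454 CPM to 81.36 and 36.21 CPM in the same line. Its log2 fold change of 2.36 (SE 0.50) had an adjusted p of 0.0633. Without HCC366 ADAR sg2, which leaves ADAR sg1 alone in its group, the log2 fold change was 2.92. Without either GFP library *IL1A* was not called.

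In NCI-H196, where *IL1B* was highest, the *GFP* libraries were at 163 and 131.9 CPM, the second from 9 reads, and the *ADAR* libraries at 280.2 and 311.4 CPM. *IL1B* rose by 0.90 (SE 0.11, adjusted p = 5.32e-15) but was not called without ADAR sg2 (0.83, adjusted p = 0.321) or GFP sg1 (1.20, adjusted p = 0.224). *IL1A* was at 9.368 and 14.66 CPM in *GFP* libraries, the second from 1 read, and at 14.21 and 20.7 CPM in *ADAR* libraries. Its groups overlapped, its log2 fold change was 1.07 (SE 0.23, adjusted p = 9.19e-05), and that call was lost without ADAR sg2 (0.60, adjusted p = 0.998) or GFP sg1 (0.43, adjusted p = 0.945). The KO effect on *IL1B* was larger in HCC366 than in NCI-H196 by 2.04 on the log2 scale (SE 0.46, adjusted p = 0.0345). That difference was not called without HCC366 GFP sg1 or sg2, NCI-H196 ADAR sg1 or sg2 or NCI-H196 GFP sg1 (1.60 to 2.52, adjusted p from 0.134 to 0.696).

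NCI-H1650 held at most 8 reads of *IL1A* and 5 of *IL1B* per library, so neither was tested there. In A549, *IL1B* had at most 4 reads in a library and was not tested. *IL1A* had between 2 and 6 reads in each of 6 A549 libraries, and 51 and 82 reads in the *ADAR* libraries given IFN-β, which is 5.36 and 4.271 CPM. It rose with *ADAR* KO under IFN-β by 3.48 (SE 0.52, adjusted p = 1.01e-05). Only those 2 libraries brought it past the count filter, and without the filter it was called at 3.51 (adjusted p = 1.88e-10). Its interaction was 3.57 (SE 1.03, adjusted p = 0.0361), and that call was lost without either ADAR IFN-β library, either GFP vehicle library, ADAR vehicle sg2 or GFP IFN-β sg2 (3.04 to 3.73, adjusted p from 0.061 to 0.211).

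Of 7 genes linked to IL-1 processing, 4 passed the filter in A549. With IFN-β, 3 of them rose in *GFP* cells (4.39% of all genes tested were called higher) and 4 in *ADAR* KO cells (15.5%). *CASP1*, which encodes caspase-1, rose by 6.49 (SE 0.54, adjusted p = 5.03e-11) and 5.26 (SE 0.53, adjusted p = 2.24e-09), from at most 2 reads per library with vehicle. *GSDMD*, the pore-forming gasdermin D, rose by 2.48 (SE 0.20, adjusted p = 3.41e-11) and 2.10 (SE 0.20, adjusted p = 1.03e-09). For *ADAR* KO in A549, 0 of the 4 were called by edgeR with vehicle or with IFN-β (0 at an unadjusted p under 0.05, and 0 by DESeq2). In HCC366, edgeR called 0 of 4 (2 at an unadjusted p under 0.05, 1 by DESeq2), and in NCI-H1650 0 of 5 (1 and 0). In NCI-H196, edgeR called 1 of 6 higher, *CASP4* (0.45, SE 0.15, adjusted p = 0.0233), where 10.3% of all genes were called higher. Its mean there was 56.55 CPM in *GFP* and 55.65 CPM in *ADAR* libraries. *IL18*, another IL-1 family ligand, rose with *ADAR* KO in NCI-H1650 by 0.71 (SE 0.12, adjusted p = 3.03e-05).

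*IL23A* (ENSG00000110944; chromosome 12, 56727958 to 56734194, plus strand, 4 exons) encodes the subunit particular to IL-23, which pairs with that of *IL12B*. It was low in all libraries. In NCI-H1650, *GFP* libraries were at 2.646 and 2.15 CPM (12 and 9 reads) and *ADAR* libraries at 4.086 and 5.979 CPM (22 and 28 reads), with a log2 fold change of 1.04 (SE 0.40, adjusted p = 0.0894). HCC366 had 0 and 2 reads in *GFP* and 5 and 10 in *ADAR* libraries and was not tested. The ratio of summed reads was 13.33, with an exact binomial interval of 3.101 to 120.2 that covers counting error only. In A549, IFN-β took *GFP* libraries from 0.6598 and 0.2656 CPM to 2.626 and 1.18 CPM (2.14, SE 0.67, adjusted p = 0.054), and with a replicate block that pairs the libraries of each sgRNA it was called (2.04, adjusted p = 0.0181). In *ADAR* KO cells *IL23A* rose from 0.4878 and 0.4068 CPM to 1.787 and 5.521 CPM (3.08, SE 0.63, adjusted p = 0.000387), having passed the filter only through libraries given IFN-β, a call lost without ADAR IFN-β sg2 (1.97, adjusted p = 0.128). The groups overlapped between *ADAR* KO and *GFP* cells with IFN-β (1.06, SE 0.47, adjusted p = 0.119).

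*IL24* (ENSG00000162892; chromosome 1, 207070788 to 207077484, plus strand, 7 exons) encodes a cytokine of the IL-10 family. It was highest in NCI-H196, with *GFP* libraries at 42.71 and 29.32 CPM, the second from 2 reads, and *ADAR* libraries at 109.6 and 120.1 CPM. *IL24* rose there by 1.47 (SE 0.13, adjusted p = 5.93e-27), a call lost without GFP sg1 (2.01, adjusted p = 0.389). In HCC366 it was 5.423 and 2.292 CPM in *GFP* and 6.998 and 17.46 CPM in *ADAR* libraries (1.89, SE 0.64, adjusted p = 0.184). In A549 it had at most 3 reads in each of 6 libraries, and 21 and 47 reads in *ADAR* libraries given IFN-β. It rose with *ADAR* KO under IFN-β by 3.58 (SE 0.69, adjusted p = 0.000308), having passed the count filter only through those 2 libraries (without the filter 3.60, adjusted p = 2.64e-06). The interaction of 4.18 (SE 1.54) had an adjusted p of 0.109. In *ADAR* KO cells the ratio of IFN-β to vehicle reads was 21.35, with an exact interval of 5.688 to 179.9 from 68 and 2 reads. *IL24* shares 823 exon bases with *FCMR* on the opposite strand, which had 533 reads over all 20 libraries.

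*CSF1* (ENSG00000184371; chromosome 1, 110452864 to 110473614, plus strand, 9 exons) encodes macrophage colony-stimulating factor. In A549 it moved with IFN-β and not detectably with *ADAR* KO. With vehicle it was 28.37 and 33.13 CPM in *GFP* and 30.98 and 31.33 CPM in *ADAR* libraries. With IFN-β it was 78.21 and 85.57 CPM in *GFP* and 83.55 and 88.29 CPM in *ADAR* libraries. IFN-β raised it by 1.40 (SE 0.12, adjusted p = 3.35e-10) in *GFP* cells and by 1.46 (SE 0.13, adjusted p = 1.07e-10) in *ADAR* KO cells. The interaction was 0.06 (SE 0.18, adjusted p = 0.9), and the KO effect with IFN-β was 0.07 (SE 0.12, adjusted p = 0.728).

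*CSF1* was called for *ADAR* KO in 2 of the 3 ADAR1-dependent lines. In NCI-H1650 it rose from 13.89 and 17.2 CPM to 25.07 and 32.89 CPM (0.89, SE 0.18, adjusted p = 0.000503), with each library left out in turn at 0.68 to 1.08 and called, but it was not called by DESeq2 (adjusted p = 0.0813) or when the 20 libraries were fitted together (adjusted p = 0.0639). In NCI-H196 it rose from 79.63 and 117.3 CPM to 159.4 and 144.4 CPM (0.88, SE 0.11, adjusted p = 4.91e-13), a call lost without GFP sg1 (0.34, adjusted p = 0.839), ADAR sg1 (0.80, adjusted p = 0.129) or ADAR sg2 (0.94, adjusted p = 0.267). In HCC366 the groups overlapped, at 30.21 and 50.14 CPM in *GFP* and 36.74 and 65.31 CPM in *ADAR* libraries (0.33, SE 0.42, adjusted p = 0.696). *IL34*, the other ligand of the CSF1 receptor, rose with IFN-β in A549 *ADAR* KO cells (1.84, SE 0.63, adjusted p = 0.0299), from 4 reads per library with vehicle to between 18 and 27, and DESeq2 gave it no adjusted p (unadjusted p = 0.0367).

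*CSF2* (ENSG00000164400; chromosome 5, 131409482 to 131411863, plus strand, 4 exons) and *CSF3* (ENSG00000108342; chromosome 17, 38171614 to 38174066, plus strand, 5 exons) encode the granulocyte-macrophage and granulocyte colony-stimulating factors. In A549, *CSF2* had at most 3 reads in each of 6 libraries, and 19 and 69 reads in *ADAR* libraries given IFN-β, which is 1.997 and 3.594 CPM. It rose with *ADAR* KO under IFN-β by 4.18 (SE 0.78, adjusted p = 0.000222), having passed the count filter only through those 2 libraries (without the filter 4.21, adjusted p = 6.54e-09). The interaction of 3.92 (SE 1.81) had an adjusted p of 0.224. In *ADAR* KO cells the ratio of IFN-β to vehicle reads was 18.42 (exact interval 6.1 to 91.04). In NCI-H196 the *GFP* libraries had 25 and 0 reads and the *ADAR* libraries 5 and 93 reads of *CSF2* (1.96, SE 0.34, adjusted p = 4.59e-07). That call was lost without GFP sg1 (8.02), which leaves 1 control library of 0 reads. Only 3 of the fits that left out 1 library tested *CSF2* there. HCC366 had 2 and 0 reads of *CSF2* in *GFP* and 4 and 7 in *ADAR* libraries and was not tested, and NCI-H1650 had at most 2.

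*CSF3* in HCC366 had 0 and 2 reads in *GFP* libraries and 8 and 15 reads in *ADAR* libraries, which is 6.998 and 9.7 CPM. It rose there by 4.16 (SE 0.82, adjusted p = 0.0449), and the ratio of the summed reads was 20.44 with an exact interval of 5.052 to 178.9. That call was lost without GFP sg1 (3.70) or GFP sg2 (6.50), and 3 of the fits that left out 1 library tested *CSF3* there. *CSF3* passed the filter only through the *ADAR* libraries, as it did in NCI-H196. DESeq2 did not call it in HCC366 (adjusted p = 0.123). In NCI-H196 the *GFP* libraries had 8 and 0 reads and the *ADAR* libraries 4 and 24 reads (1.79, SE 0.61, adjusted p = 0.0196). That call was lost without ADAR sg1 (1.75). Only 2 of the fits that left out 1 library tested *CSF3* there, and in the rest it fell under the count filter. A549 and NCI-H1650 libraries had at most 3 reads of *CSF3*, and it was not tested there.

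**Figure D4:**
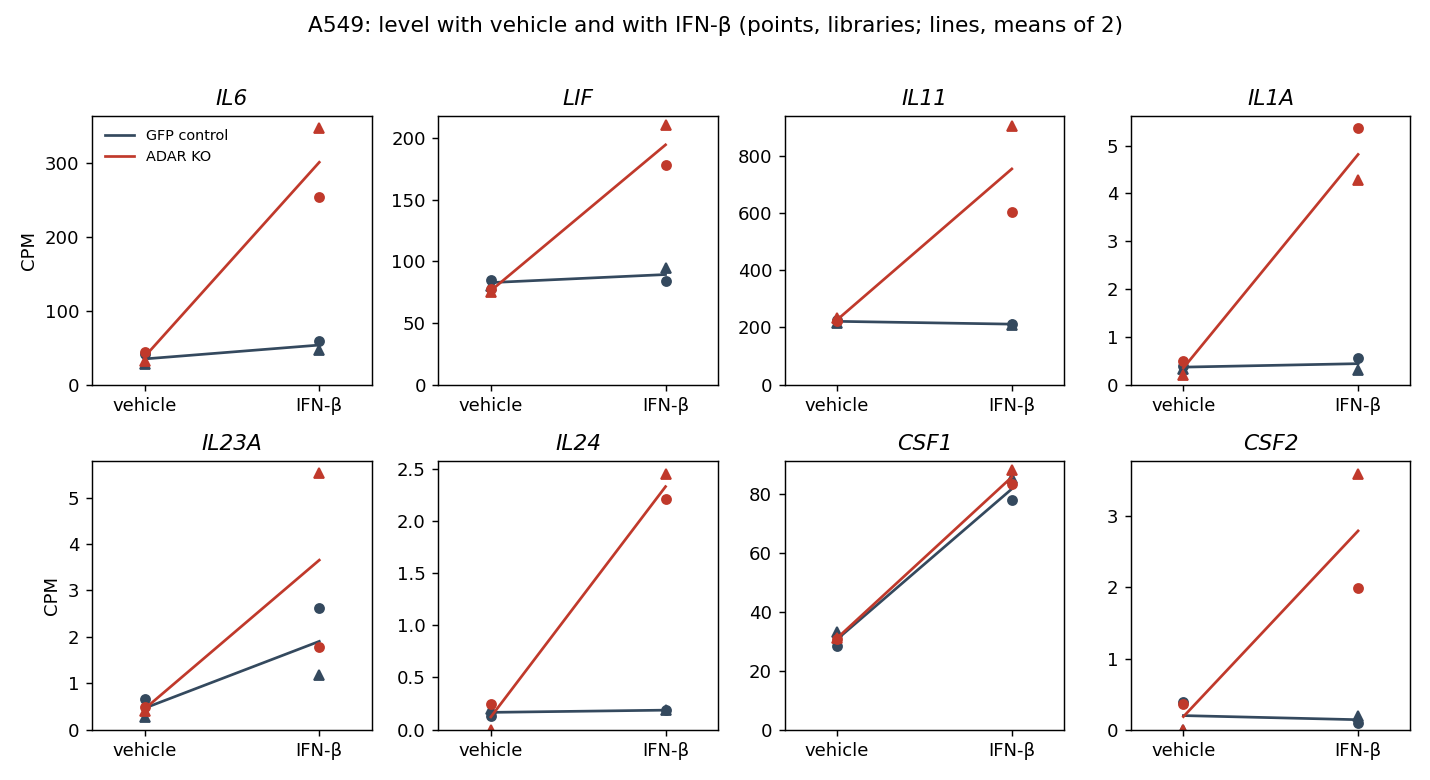
CPM of 8 members in A549 with vehicle and with IFN-β on linear axes from 0. Circles are sg1, triangles sg2, and lines join the means of 2 libraries, red for *ADAR* and dark blue for *GFP*. *IL6*, *LIF*, *IL11*, *IL1A*, *IL24* and *CSF2* are high in the *ADAR* libraries given IFN-β, while both lines of *CSF1* climb together, from about 31 to between 81.9 and 85.9 CPM.

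Counted by comparison, 8 of the 10 members passed the filter in HCC366 and 2 were called higher with *ADAR* KO, where 1.2% of all genes tested were called higher. Of the 5 that passed in NCI-H1650, 4 were called higher (6.18% of all genes). For NCI-H196, 8 passed and 8 were called higher (10.3% of all genes). A gene that passes the filter only through the group where it is high was in part chosen for its difference, and this held for *IL11*, *IL1B*, *IL24* and *CSF3* in HCC366 and for *CSF3* in NCI-H196. Without these, edgeR called 0 of 4 in HCC366 (3 at an unadjusted p under 0.05, and DESeq2 called 2, *IL6* and *IL1A*) and 7 of 7 in NCI-H196. By DESeq2, *IL6* alone was called in NCI-H1650, where 389 of 33368 genes were called. *IL6* and *LIF* alone were called by it in NCI-H196, where 11 of 33120 genes were called. The number called by edgeR fell in NCI-H196 without GFP sg1 or ADAR sg2 and in NCI-H1650 without GFP sg2. In HCC366 it fell without either GFP library and grew without either ADAR library. Such a fit leaves a group without a replicate. The number of all genes called moved as well, so these shifts are no result about the members.

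In A549, 8 members passed the filter, of which *IL1A*, *IL24* and *CSF2* were at 6 reads or fewer outside the *ADAR* libraries given IFN-β. With vehicle, 0 members were called for *ADAR* KO by edgeR or DESeq2, 0 had an unadjusted p under 0.05 in edgeR, and 0.0324% of all genes were called higher. With IFN-β, 6 were called higher (10.8% of all genes), or 3 of 5 without those 3 genes. For IFN-β itself, 2 were called higher in *GFP* cells (4.39% of all genes; 1 without GFP vehicle sg2 or GFP IFN-β sg1) and 8 in *ADAR* KO cells (15.5%), or 4 of 4 without *IL1A*, *IL23A*, *IL24* and *CSF2*. For the interaction, 4 were called higher (4.07%), or 3 of 5 without *IL1A*, *IL24* and *CSF2*. Leaving out the genes that passed only through the higher group, the members tested had a median log2 fold change of 1.13 (HCC366), 0.89 (NCI-H1650), 1.43 (NCI-H196), 0.03 in A549 with vehicle and 1.12 with IFN-β, beside medians over all genes between −0.01 and 0.01.

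Between lines, the KO effect in NCI-H1650 differed from that in HCC366 for 0 members (0.659% of all genes called in either direction; 4 members at an unadjusted p under 0.05 in edgeR, 0 called by DESeq2). Without either HCC366 ADAR library this count grew. Such a fit leaves that group without a replicate, and the number of all genes called grew as well, so the shift is no result about the members. NCI-H1650 and NCI-H196 differed for 0 members (0% of all genes; 0 members at an unadjusted p under 0.05, 0 by DESeq2), and HCC366 and NCI-H196 for 1, *IL1B* (0.792% of all genes). For *IL6* the effect in NCI-H1650 minus that in HCC366 was −0.11 (SE 0.34), NCI-H1650 minus NCI-H196 was −0.26 (SE 0.35) and HCC366 minus NCI-H196 was −0.14 (SE 0.36). These comparisons share libraries with the effects of each line given above.

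Most receptor genes tested were not called. Of 17 on the list, 10 passed the filter in A549. With *ADAR* KO under IFN-β, 2 rose and 0 fell, where 10.8% of all genes were called higher. *IL6ST*, the shared IL-6 family subunit, rose from 237.3 ± 32.93 to 393.2 ± 72.49 CPM (0.73, SE 0.11, adjusted p = 2.17e-05; interaction 0.76, SE 0.16, adjusted p = 0.00353). *OSMR*, the oncostatin M receptor, rose by 0.33 (SE 0.10, adjusted p = 0.0162). *IL22RA1*, a subunit used by IL-22 and IL-24, rose with IFN-β in *GFP* cells by 2.04 (SE 0.26, adjusted p = 6.33e-07) and in *ADAR* KO cells by 2.54 (SE 0.29, adjusted p = 4.65e-08). In *ADAR* KO cells *IL6R*, the ligand-binding IL-6 receptor, fell with IFN-β (−0.95, SE 0.26, adjusted p = 0.0075) and 4 receptor genes rose, among them *IL1RAP* (1.16, SE 0.21, adjusted p = 7.62e-05). In that comparison, 15.5% of all genes were called higher. With *ADAR* KO, edgeR called 0 of 7 tested receptor genes in HCC366 (2 at an unadjusted p under 0.05, 0 by DESeq2) and 0 of 10 in NCI-H1650 (1 and 0). Those 2 in HCC366 were lower with *ADAR* KO: *IL6ST* (−1.25, SE 0.39, adjusted p = 0.162) and *LIFR* (−1.56, SE 0.47, adjusted p = 0.155). In NCI-H196, edgeR called 2 of 10 higher, *IL6R* (0.84, SE 0.20, adjusted p = 0.000461) and *IL20RB* (0.59, SE 0.20, adjusted p = 0.0218). It called *IL11RA* lower (−0.90, SE 0.34, adjusted p = 0.0413), and DESeq2 gave none of these 3 an adjusted p. The mean of *IL20RB* did not rise, at 23.02 ± 8.901 CPM in *GFP* libraries (2 to 150 reads) and 22.05 ± 6.782 CPM in *ADAR* libraries. The *GFP* libraries had 0 to 139 reads of *IL6R* and 1 to 69 of *IL11RA*. Of all genes tested there by edgeR, 10.3% were called higher.

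*SOCS3*, a STAT3 target that shuts off signalling through IL6ST, rose with *ADAR* KO in A549 under IFN-β. It was at 86.27 ± 3.838 CPM in *GFP* and 247.5 ± 40.59 CPM in *ADAR* KO cells given IFN-β (1.52, SE 0.11, adjusted p = 1.59e-11), and its interaction was 1.55 (SE 0.16, adjusted p = 9.54e-08). Of 9 genes of JAK-STAT3 signalling and feedback, 3 rose and 0 fell in A549 *ADAR* KO cells under IFN-β, among them *BCL3* (0.53, SE 0.11, adjusted p = 0.00108) and the kinase *PIM1* (0.51, SE 0.17, adjusted p = 0.0397), and DESeq2 called 2 of 9. The share of all genes that edgeR called higher was 10.8%. In NCI-H1650, 3 of 8 rose with *ADAR* KO, led by *BCL3*, an NF-kB cofactor and STAT3 target (1.07, SE 0.14, adjusted p = 1.56e-07), and DESeq2 called 1 of 8. Of all genes tested in that line, edgeR called 6.18% higher. In NCI-H196, 3 of 9 rose, *SOCS1* (1.41, SE 0.36, adjusted p = 0.0012), *BCL3* (1.16, SE 0.18, adjusted p = 8.37e-09) and *SOCS3* (0.82, SE 0.15, adjusted p = 1.01e-06). DESeq2 called 0 there, of 4 with an adjusted p, which it did not give for those 3. Among all genes tested in that line, edgeR called 10.3% higher. In HCC366, edgeR called 0 of 8 (2 at an unadjusted p under 0.05, 0 by DESeq2). *SOCS1*, which restrains interferon signalling, rose with IFN-β in A549 *GFP* cells by 3.32 (SE 0.45, adjusted p = 2.44e-06) and in *ADAR* KO cells by 2.92 (SE 0.50, adjusted p = 4.37e-05).

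Some genes that control the decay of cytokine mRNA also rose. *ZFP36*, which encodes tristetraprolin, rose with *ADAR* KO under IFN-β in A549 by 0.94 (SE 0.13, adjusted p = 1.92e-06) and *ZFP36L1* by 0.79 (SE 0.10, adjusted p = 1.03e-06). These were 2 of 7 genes on the list, where 10.8% of all genes were called higher. The interactions of *ZFP36* and *ZFP36L1* were 1.06 (SE 0.18, adjusted p = 0.000345) and 0.79 (SE 0.14, adjusted p = 0.000675). In NCI-H1650, 4 of 7 rose with *ADAR* KO, led by *ZC3H12A* (0.67, SE 0.16, adjusted p = 0.00298), *ZFP36* (0.46, SE 0.12, adjusted p = 0.0102) and *ZFP36L2* (0.39, SE 0.10, adjusted p = 0.00838), while DESeq2 called 1 of 7. Of all genes tested there, edgeR called 6.18% higher. In NCI-H196, edgeR called 4 higher, led by *ZFP36* (1.12, SE 0.22, adjusted p = 8.85e-06) and *ZC3H12A* (1.11, SE 0.11, adjusted p = 1.36e-20). It called 2 lower, among them *ELAVL1*, which stabilizes such mRNAs (−0.44, SE 0.11, adjusted p = 0.00109). The mean of *ELAVL1* was 94.17 ± 50.25 CPM in *GFP* libraries (4 to 1163 reads) and 96.03 ± 3.445 CPM in *ADAR* libraries, so the means did not fall. For *ZFP36* the means were 20.18 ± 12.92 CPM (2 to 99 reads) and 25.18 ± 1.718 CPM. DESeq2 called 0 of the 6 to which it gave an adjusted p. Of 14094 genes tested there, edgeR called 1456 higher and 1057 lower. In HCC366, edgeR called 0 of 7 (2 at an unadjusted p under 0.05, 1 by DESeq2). The members called in these comparisons and the decay genes come from the same libraries and cannot be ordered in time. Whether the receptor, JAK-STAT3 or decay list held a larger share of calls than all genes was not tested.

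The genes whose level followed *IL6* most closely were *TNFAIP3* (Pearson's r = 0.975), *RCAN1* (0.972), *ZNF462* (0.970), *PPP4R1L* (0.969) and *KLF6* (0.968), on log2 CPM centred within each line over 20 libraries, out of 10240 genes. For *LIF* they were *NR1D1* (0.961), *ASXL1* (0.960), *ZNF317* (0.958), *GATA6* (0.958) and *TENT5B* (0.953). The points share libraries, depth and the 10 conditions, and r is given as a description. *TNFAIP3* encodes A20, an inhibitor of NF-kB signalling that NF-kB itself induces.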

How the data were processed

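Total RNA was depleted of ribosomal RNA and made into directional paired-end libraries. Per the labels and the study's methods, the authors aligned reads to hg19 with STAR, counted them per gene with HTSeq and used DESeq2, and the versions, annotation release and strand setting are not given in the sources used here. The deposited values are raw counts per Ensembl gene, without normalization. HTSeq's summary lines were left out. Reads on genes ranged from 62679 to 19520189 per library, and errors cover 2 sgRNAs and counting only. Of the identifiers, 55727 matched a symbol and 2506 did not. Positions and exon lengths came from a GENCODE annotation on GRCh37, and promoters from RefSeq on GRCh38.p14.

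Low-count genes were dropped by filterByExpr with the condition as group, libraries were scaled by TMM, and contrasts were tested by edgeR 4.0.16 (quasi-likelihood, prior count 0.125, limma 3.58.1, R 4.3.3) with Benjamini-Hochberg adjustment over all genes and a threshold of 0.05. One fit was made per ADAR1-dependent line and one over the 8 A549 libraries, and line differences came from the 12 libraries of the other lines. Alternatives were DESeq2 1.42.0, its size factors, no filter, each library left out, a replicate block and one fit of all 20 libraries; an edgeR fit with adjusted deviances and a crossed block in HCC366 were added after the data were seen. The fits were tested on simulated data. The members and the 7 lists of related genes (63 genes) were chosen with earlier results of these data known. All members are named in every comparison, and of each list up to 3 called genes with the largest fold change. DESeq2's missing adjusted p-values were left missing. In A549, treated and vehicle libraries with the same sgRNA are paired by it, while *GFP* and *ADAR* sgRNAs share a number only.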

Additional observations from a re-analysis of the deposited data

Results flagged for a closer look

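Each result here is a difference between groups in the effect of a contrast, by a test of the difference itself. In A549, the effect of *ADAR* KO with IFN-β exceeded that with vehicle by 2.37 on the log2 scale for *IL6* (SE 0.23, adjusted p = 2.35e-08), by 1.24 for *LIF* (SE 0.16, adjusted p = 3.18e-06), by 1.80 for *IL11* (SE 0.17, adjusted p = 2.16e-08) and by 3.57 for *IL1A* (SE 1.03, adjusted p = 0.0361). *IL1A* passed the count filter only through the *ADAR* libraries given IFN-β, where it was high, and without the filter its interaction was 3.59 (adjusted p = 0.0156). The first 3 were called in each of the 8 fits that left out 1 library, and *IL1A* in 2 of 8. With the libraries of each sgRNA paired, all 4 were called. The effect on *IL1B* in HCC366 exceeded that in NCI-H196 by 2.04 (SE 0.46, adjusted p = 0.0345) and was called in 3 of the 8 fits that left out 1 library.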

How the results depend on the processing

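The number of members called was compared between settings. For *ADAR* KO in HCC366, where 2 were called, it was 8 with all 20 libraries fitted together, 5 without the filter on low counts and 4 with crossed sgRNA numbers as a replicate block, a setting added after the data were seen because the deviations of same-numbered libraries correlated at −0.253. In NCI-H1650 (4 called) it was 1 of 4 with an adjusted p by DESeq2, and 1 with all 20 libraries fitted together. In NCI-H196 (8 called) it was 3 with all 20 libraries fitted together, 2 of 5 by DESeq2 and 4 under a replicate block by sgRNA number. In A549 it was 3 of 4 by DESeq2 for *ADAR* KO with IFN-β (6 called), and 1 both by DESeq2 and with all 20 libraries fitted together for IFN-β in *GFP* cells (2 called). The difference between HCC366 and NCI-H196 (1 called) fell to 0 under that block. Over all genes the number called in either direction moved too. In HCC366 it was 139 of 11135 in the main fit and 3701 of 19523 with all 20 libraries together. It was 903 of 29655 there without the filter and 960 of 11135 with the crossed block. NCI-H1650 went from 1250 of 14530 to 159 of 19523 together and 389 of 33368 by DESeq2. NCI-H196 went from 2513 of 14094 to 98 of 19523 together, 11 of 33120 by DESeq2 and 115 of 14094 under the block. The cause of these shifts was not tested.

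With each library left out in turn, the number moved in HCC366, NCI-H1650 and NCI-H196 and for IFN-β in A549 *GFP* cells. It also moved for NCI-H1650 minus HCC366 and for HCC366 minus NCI-H196. Such fits leave a group without a replicate. The number of all genes called moved as well, so these shifts are no result about the members. Over the 35 member changes called, 372 alternative values had an adjusted p, of which 317 kept the direction and the call and 55 kept the direction alone. Settings in which a gene fell under the count filter or got no adjusted p are not among the 372. The share that kept the call therefore leaves out calls that could not be made there. Pairing the A549 libraries of each sgRNA added *IL23A* with IFN-β in *GFP* cells (3 called) and changed no other call, and *GFP* and *ADAR* libraries share only a number. Depth limits the members at a few reads, and NCI-H196 most, where 1 control library had 62679 reads.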
